A study of Mus musculus with 5 samples.

Results

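The 8 genes described here mark and maintain the epithelial state, and were followed in mouse ES cells with and without C3G. They are the transcription factors Grhl2 and Ovol2, the splicing regulators Esrp1 and Esrp2, the adhesion molecule Epcam, the membrane serine protease St14 (matriptase), and its inhibitors Spint1 and Spint2. The genes were chosen for these known roles, with earlier results of these data known, and all 8 were found among the 55147 gene symbols of the data and among the 12518 genes tested. RNA was sequenced from 5 samples, 3 of them WT and 2 C3G KO. WT were the parental E14Tg2a line, a feeder-independent mouse ES cell line. C3G KO were C3G-/- clones of that line in which a targeting vector with a puromycin cassette, inserted with CRISPR, replaced exons 2 to 4 of Rapgef1, the gene of the guanine nucleotide exchange factor C3G. Both groups were grown on gelatin in GMEM with serum and LIF, and neither received a treatment. The WT samples were parental cells and not puromycin-selected clones, so the mutation and the selection of clones cannot be told apart. The study calls the samples of each group independent, but neither it nor the sample labels say whether they were separate cultures, or whether the C3G KO samples were separate clones. The p-values therefore measure only the spread between these samples.

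In epithelia, Grhl2 switches on junction genes and Ovol2 holds back the mesenchymal programme, and Esrp1 and Esrp2 direct the epithelial forms of many transcripts. Epcam holds neighbouring cells together and stabilises claudins. Matriptase cleaves substrates at the cell surface, and the Kunitz-type inhibitors HAI-1, the product of Spint1, and HAI-2, the product of Spint2, bind it and keep it in check. ES cells are themselves epithelial in character, with E-cadherin and Epcam at their surface, and lose these features when they leave pluripotency through an epithelial to mesenchymal transition (EMT).

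Expression was measured as TPM, the share of each transcript in all transcripts of a sample after correction for its length, which allows levels of different genes to be set side by side. Small RNAs, counted together with annotated nuclear and mitochondrial ribosomal RNAs, took between 62.9% and 67.2% of the TPM in WT cells. In the 2 C3G KO samples they took 77.8% and 69.6%. Protein-coding genes had 28.8% to 31.8% in WT and 18.6% and 26.0% in C3G KO cells. A TPM is a share of this whole, and the median log2 fold change of all genes tested was -0.55 as deposited. The TPM of each sample were therefore divided by a size factor (the median ratio of its genes to their geometric means), after which that median was 0.0052. The values below are such scaled TPM unless they are called deposited. Fold changes are on the scale of log2(TPM + 1), which understates the change of genes with few TPM. A gene was called higher or lower at an adjusted p under 0.05 by limma over all genes tested. Rapgef1 itself was at 8.66, 8.45 and 8.73 in the WT samples and at 6.34 and 6.13 in the C3G KO samples. Its log2 fold change was -0.41 (SE 0.059, adjusted p = 0.00444 by limma), and this value sums all its transcripts, including exons outside the replaced ones. It did not pass the test after correcting for the GC content and length of transcripts (log2 fold change -0.12, adjusted p = 0.239 by limma).

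After scaling, St14, Spint1, Spint2 and Esrp2 were lower in C3G KO cells, whereas Grhl2, Ovol2, Esrp1 and Epcam did not pass the test. Of the 8 genes 4 were thus called lower and 0 higher, where 16.6% of all genes tested were called lower and 14.1% higher. The median log2 fold change of the 8 genes was -0.23. For 6 of them both C3G KO samples lay below every WT sample, which held for 29.3% of all genes tested. In deposited TPM all 8 genes were called lower, with a median log2 fold change of -0.81, but there 56.8% of all genes were called lower and for 75.7% both C3G KO samples lay below every WT sample. Ovol2 passed the filter on low values only through its WT samples. In these bulk samples, fewer cells that express a gene and less RNA per cell cannot be told apart.

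**Figure D1:**
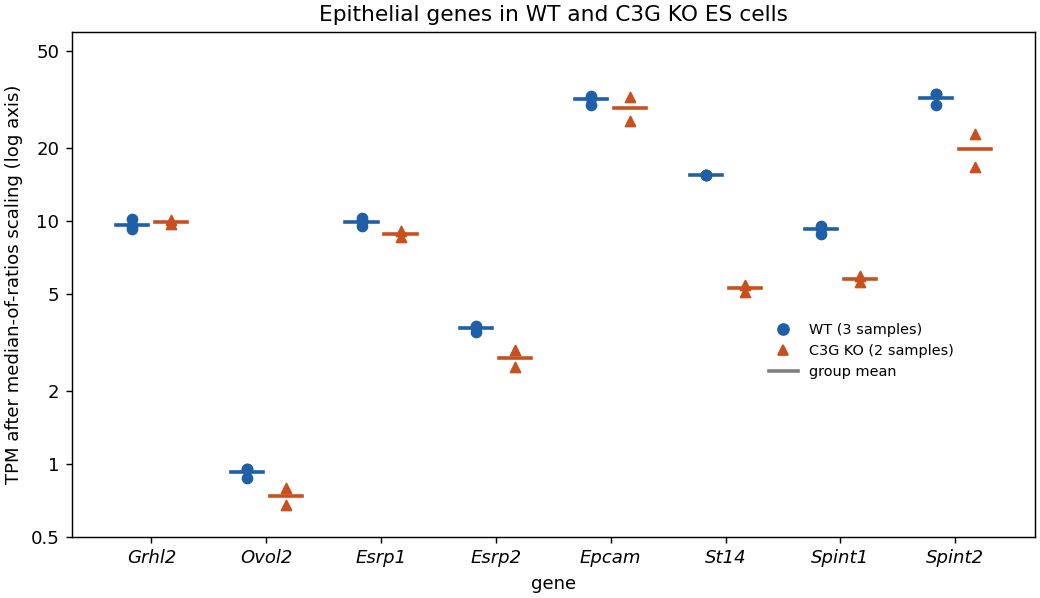
Levels of the 8 genes in each of the 5 samples, as scaled TPM on a log axis. Each point is 1 sample of WT (n = 3) or C3G KO (n = 2) cells and the short lines are group means. The groups of Grhl2 and Epcam overlap, those of the other 6 genes do not, and those of St14 (15.5 against 5.28 on average) lie farthest apart.

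The largest difference among the 8 genes was that of the protease. St14 (ENSMUSG00000031995) lies on the minus strand of chromosome 9 (GRCm38, chr9:31089402-31131853). Its scaled level was 15.5 TPM in each of the 3 WT samples, against 5.45 and 5.11 in C3G KO cells. The WT samples were nearly identical, and C3G KO cells held 34.0% of the WT level. The log2 fold change was -1.40 (SE 0.060, 95% confidence interval -1.54 to -1.25, adjusted p = 0.000121 by limma), and 0.751% of all genes tested had a lower one. In deposited TPM the WT samples had 20.73, 18.95 and 17.14 and the C3G KO samples 3.37 and 4.63, a log2 fold change of -2.00. One annotated transcript carried 87.6% to 88.9% of the St14 TPM in WT and 82.1% to 88.1% in C3G KO cells, and its own deposited TPM were 18.43, 16.59 and 15.23 against 2.97 and 3.80.

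Both inhibitors of the protease were also lower, by a smaller fold. Spint1 (ENSMUSG00000027315, plus strand, chr2:119237362-119249527) was at 8.85, 9.38 and 9.50 scaled TPM in WT cells and at 5.92 and 5.59 in C3G KO cells. The groups were well apart, and the C3G KO mean was 62.2% of that of WT (log2 fold change -0.60, SE 0.065, adjusted p = 0.00168 by limma). Spint2 (ENSMUSG00000074227, minus strand, chr7:29256323-29281912) was at 33.3, 33.4 and 30.0 in WT cells and at 16.6 and 22.9 in C3G KO cells. The groups did not overlap, but the 2 C3G KO samples differed from each other more than the WT samples did. The C3G KO mean was 61.4% of that of WT (log2 fold change -0.69, SE 0.14, adjusted p = 0.0135 by limma), and the log2 fold change was -0.47 without the C3G KO sample with the lower value and -0.91 without the other. Without the filter on low values the call of Spint2 was lost (adjusted p = 0.0578 by limma). The deposited log2 fold changes were -1.20 for Spint1 and -1.36 for Spint2. The most abundant transcript of Spint1 and that of Spint2 carried at least 70.1% and 86.6% of their gene's TPM in every sample.

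The RNA balance between protease and inhibitors can be read within a sample, where a size factor shared by all genes cancels. A bias from transcript length or GC content does not cancel. After correcting for these the log2 fold changes were -1.18 for St14, -0.47 for Spint1 and -0.69 for Spint2. Protein was not measured. The ratio of Spint1 to St14 TPM was 0.570, 0.604 and 0.612 in the WT samples and 1.09 in both C3G KO samples, 1.83 times as high. WT cells thus held less Spint1 than St14 RNA, while C3G KO cells held slightly more. The ratio of Spint2 to St14 was 2.14, 2.15 and 1.93 in WT and 3.05 and 4.48 in C3G KO cells, 1.82 times as high. For both inhibitors every C3G KO sample lay above every WT sample. The ratio of Spint2 to Spint1 overlapped between the groups, at 3.15 to 3.76 in WT and 2.81 and 4.10 in C3G KO cells. An exact permutation test of 3 samples against 2 cannot give a two-sided p below 0.2, which both ratios to St14 reached, among 11 ratios computed. So did the ratios of Esrp2 to Esrp1, Ovol2 to Grhl2, Grhl3 to Grhl2, St14 to Grhl2, St14 to Epcam and Cdh1 to Epcam.

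**Figure D2:**
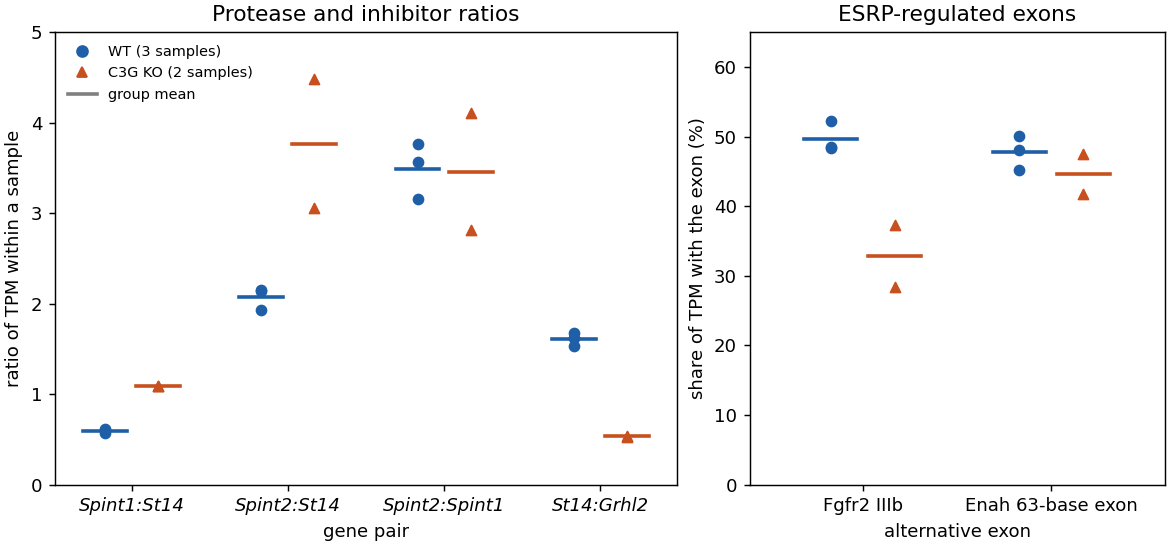
Ratios of TPM within each sample for selected gene pairs, and the percentage of transcripts with the epithelial exon of Fgfr2 and Enah. Each point is 1 sample. The ratios of Spint1 and Spint2 to St14 are higher in both C3G KO samples than in any WT sample, the Fgfr2 percentage is lower in both, and the Enah percentages overlap.

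Of the splicing regulators Esrp2 was called lower and Esrp1 was not, and the difference between the 2 genes was read only as a ratio. Esrp2 (ENSMUSG00000084128, minus strand, chr8:106130319-106136974) was at 3.71, 3.50 and 3.67 scaled TPM in WT cells and at 2.51 and 2.94 in C3G KO cells. Its groups did not overlap, and it fell to 75.0% of the WT mean (log2 fold change -0.32, SE 0.076, adjusted p = 0.0250 by limma). The call was close to the threshold: it was lost when any sample other than the second C3G KO sample was left out (adjusted p 0.0562 to 0.105) and after correcting for the GC content and length of transcripts (log2 fold change -0.17, adjusted p = 0.120 by limma). Esrp1 (ENSMUSG00000040728, minus strand, chr4:11331933-11386783) was at 9.96, 9.53 and 10.3 in WT cells and at 9.13 and 8.60 in C3G KO cells. Both C3G KO samples were below every WT sample, but the difference did not pass the test (log2 fold change -0.15, 95% confidence interval -0.31 to 0.013, adjusted p = 0.140 by limma). Esrp1 was the more abundant of the pair in every sample, and the ratio of Esrp2 to Esrp1 was 0.372, 0.368 and 0.358 in WT and 0.274 and 0.342 in C3G KO cells. The deposited log2 fold changes were -0.77 for Esrp1 and -0.82 for Esrp2, and the deposited difference of Esrp1 passed the test (adjusted p = 0.0073 by limma).

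Next, 2 exons whose inclusion is known to depend on the ESRP proteins were read from the annotated transcripts. Fgfr2, a receptor of fibroblast growth factors, uses 1 of 2 neighbouring alternative exons, and epithelial cells use the one called IIIb. Exon IIIb was identified by its length and order in the annotation, on the minus strand at chr7:130199758-130199905, and is shown because its share is the measurement.
Fgfr2 IIIb exon: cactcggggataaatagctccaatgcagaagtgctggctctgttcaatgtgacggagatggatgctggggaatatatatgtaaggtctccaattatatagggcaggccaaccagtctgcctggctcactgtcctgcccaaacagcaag
Among Fgfr2 transcripts with either alternative exon, those with IIIb made up 48.4%, 52.2% and 48.5% in WT cells and 37.3% and 28.5% in C3G KO cells. The percentage was lower in both C3G KO samples than in any WT sample (49.7% ± 2.18, SD, n = 3, against 32.9% ± 6.22, SD, n = 2). These percentages rest on few TPM. In deposited values IIIb transcripts summed to 1.25 to 1.55 in WT and 0.57 and 0.74 in C3G KO cells. Transcripts with its alternative, IIIc, summed to 1.33 to 1.44 in WT and to 0.96 and 1.86 in C3G KO cells. Whether less IIIb RNA or more IIIc RNA lowered the percentage was not tested. The table gives no error for the TPM of the 15 transcripts with either exon, which share many of their exons. The other exon is a 63-base exon of Enah, an actin regulator, at chr1:181911597-181911659 on the minus strand, which is included in epithelial cells. Of the coding Enah transcripts that span its place, it was present in 48.2%, 45.2% and 50.1% in WT cells and in 47.6% and 41.7% in C3G KO cells. The Enah groups overlapped.

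The transcription factors did not pass the test after scaling. Grhl2 (ENSMUSG00000022286, plus strand, chr15:37233036-37363569) was at 9.57, 9.24 and 10.2 scaled TPM in WT cells and at 10.1 and 9.69 in C3G KO cells. The groups overlapped (log2 fold change 0.031, 95% confidence interval -0.13 to 0.19, adjusted p = 0.758 by limma). In deposited TPM the same gene was at 12.77, 11.27 and 11.22 in WT and at 6.23 and 8.78 in C3G KO cells, and there its log2 fold change of -0.60 passed the test (adjusted p = 0.0338 by limma) and was -0.05 relative to the median of all genes. Ovol2 (ENSMUSG00000037279, minus strand, chr2:144305175-144332146), a zinc finger repressor of mesenchymal genes, was the least abundant of the 8. It was at 0.951, 0.869 and 0.951 in WT cells and at 0.792 and 0.673 in C3G KO cells. The groups did not overlap, but the difference did not pass the test and turned to 0.023 with quantile normalization (log2 fold change after scaling -0.15, 95% confidence interval -0.35 to 0.045, adjusted p = 0.203 by limma). Within samples, the ratio of Ovol2 to Grhl2 was 0.0995, 0.0941 and 0.0936 in WT and 0.0787 and 0.0695 in C3G KO cells, lower in both C3G KO samples.

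Epcam (ENSMUSG00000045394, plus strand, chr17:87635979-87651129) was among the 2 most abundant of the genes in both groups. It was at 30.2, 32.2 and 32.8 scaled TPM in WT cells and at 25.8 and 32.4 in C3G KO cells. The second C3G KO sample lay within the WT range, and the difference did not pass the test (log2 fold change -0.13, 95% confidence interval -0.39 to 0.14, adjusted p = 0.409 by limma). Without the first C3G KO sample the log2 fold change was 0.033. In deposited TPM Epcam was at 40.27, 39.33 and 36.17 in WT and at 15.98 and 29.39 in C3G KO cells (log2 fold change -0.80, adjusted p = 0.00967 by limma). A single transcript carried up to 96.4% of its TPM in WT and 90.0% to 90.9% in C3G KO cells. Cdh1 is the gene of E-cadherin and the partner most often read beside Epcam. It was at 48.0, 47.1 and 44.0 in WT and at 32.9 and 42.9 in C3G KO cells. The difference did not pass the test either (log2 fold change -0.30, adjusted p = 0.112 by limma). By western blot, which measures protein and not RNA, the paper reported more E-cadherin in C3G KO cells.

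**Figure D3:**
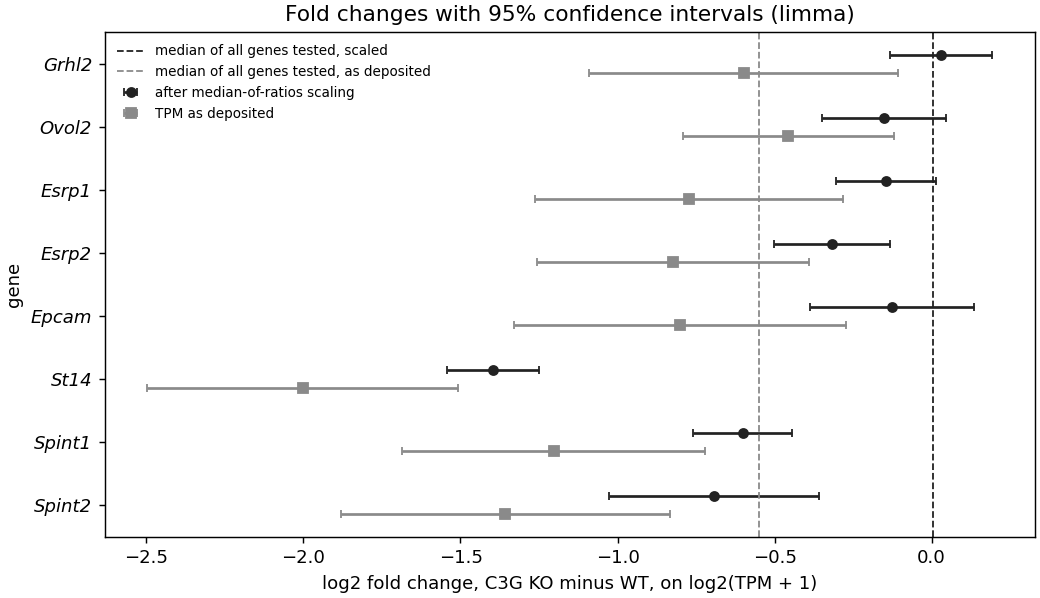
Log2 fold changes of the 8 genes, C3G KO minus WT, in deposited and in scaled TPM, with 95% confidence intervals from limma. Dashed lines are the medians of all genes tested, -0.55 and 0.0052. After scaling the intervals of St14, Spint2, Spint1 and Esrp2 lie below 0 and those of the other 4 genes include it.

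The differences changed the order of the genes. In WT cells the scaled means fell from Spint2 (32.2) and Epcam (31.7) through St14 (15.5), Esrp1 (9.92), Grhl2 (9.66) and Spint1 (9.24) to Esrp2 (3.63) and Ovol2 (0.924). Spint2 and Epcam overlapped there, as did Esrp1 with Grhl2 and Grhl2 with Spint1. In C3G KO cells the order was Epcam (29.1), Spint2 (19.8), Grhl2 (9.88), Esrp1 (8.87), Spint1 (5.75), St14 (5.28), Esrp2 (2.72) and Ovol2 (0.733), with no overlap between neighbours. St14 thus moved from the third to the sixth place. Relative to Grhl2, St14 was at 1.62, 1.68 and 1.53 in the WT samples and at 0.541 and 0.527 in the C3G KO samples, lower in both.

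Promoter sequence was available for 4 of the 8 genes (RefSeq, GRCm38.p6), Epcam, Spint1, Spint2 and Ovol2. The Ovol2 window lies within the gene as GENCODE annotates it and overlaps an exon there. The 250 bases before each start were searched on both strands for the GRHL consensus AACCGGTT, for its core ACCGGT, which lies within the consensus, and for the E-box CACCTG, with CAGGTG as its other strand, which SNAI and ZEB repressors bind. The consensus was in none of the 4 windows and in 0.116% of the 32851 windows of all genes. The core was in 2 of the 4, Epcam and Spint1, and in 1.86% of all windows, and the E-box was in Epcam and Spint2 and in 17.2% of all windows. The core was searched after the windows had been seen. The windows that hold a match are shown with matches in capitals, 5′ to 3′ on the strand of the gene, at chr17:87635729-87635978, chr2:119237110-119237359 and chr7:29281978-29282227.
Epcam: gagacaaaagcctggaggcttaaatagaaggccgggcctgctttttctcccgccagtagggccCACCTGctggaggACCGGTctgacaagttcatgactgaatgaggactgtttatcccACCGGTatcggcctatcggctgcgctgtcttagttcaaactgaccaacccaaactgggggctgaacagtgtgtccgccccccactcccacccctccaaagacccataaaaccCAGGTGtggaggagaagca
Spint1: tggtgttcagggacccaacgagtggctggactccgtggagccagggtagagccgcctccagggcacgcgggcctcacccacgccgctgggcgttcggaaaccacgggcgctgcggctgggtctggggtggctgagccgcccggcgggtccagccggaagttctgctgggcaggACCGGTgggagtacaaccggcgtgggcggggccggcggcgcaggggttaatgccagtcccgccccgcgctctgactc
Spint2: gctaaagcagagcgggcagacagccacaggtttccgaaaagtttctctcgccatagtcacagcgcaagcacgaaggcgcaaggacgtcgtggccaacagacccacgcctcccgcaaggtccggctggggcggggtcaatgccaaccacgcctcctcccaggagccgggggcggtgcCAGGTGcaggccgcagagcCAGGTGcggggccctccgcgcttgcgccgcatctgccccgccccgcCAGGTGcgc
The Epcam window holds the core at -174 and -131 and the E-box at -187 and -19 from the start, the Spint1 window holds the core at -77, and the Spint2 window holds the E-box at -74, -55 and -9. Of these genes Spint1 and Spint2 were called lower and Epcam was not. A match is a run of letters and not a measured binding site.

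Of the paralogs of the 2 transcription factors, Grhl3 was called lower. Grhl3, which acts in surface epithelia, was at 4.86, 4.80 and 5.32 scaled TPM in WT and at 2.93 and 2.86 in C3G KO cells (log2 fold change -0.62, adjusted p = 0.00179 by limma). Its ratio to Grhl2 was 0.508, 0.520 and 0.523 in WT and 0.291 and 0.295 in C3G KO cells. Grhl1 did not pass the test (log2 fold change -0.20, adjusted p = 0.120 by limma), and Ovol1 was below the filter, at 0.449 to 0.553 in WT and 0.323 and 0.442 in C3G KO cells. Of 14 other epithelial transcription factors 7 were tested, of which 5 were lower and 0 higher (median log2 fold change -0.38). Over all genes tested 16.6% were lower and 14.1% higher. The factors called lower included Cdx2, a trophectoderm and gut factor, at 0.761 to 0.828 in WT and 0.0485 and 0.121 in C3G KO cells. Cdx2 passed the filter on low values only through WT. Klf5, a factor of both ES cells and epithelia, was also called lower (log2 fold change -0.45, adjusted p = 0.0257 by limma).

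Around St14, 22 further membrane proteases, substrates and receptors were listed, and 8 passed the filter. Of those, 6 were lower, 0 higher and 2 did not pass (median log2 fold change -0.52), where 16.6% of all genes tested were lower and 14.1% higher. Plaur, the urokinase receptor, had a log2 fold change of -1.70 (adjusted p = 0.00012 by limma). F2rl1, the receptor PAR2 that matriptase can activate, was at 8.39, 8.58 and 9.39 in WT and at 3.30 and 3.70 in C3G KO cells (log2 fold change -1.12, adjusted p = 0.000442 by limma). Prss8, the gene of prostasin and the classical partner of matriptase, was at 2.47, 2.34 and 3.55 in WT and at 1.49 and 1.76 in C3G KO cells (log2 fold change -0.52, adjusted p = 0.0422 by limma). Of these 8 genes 3 passed the filter only through WT.

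Among 36 surface, junction and polarity genes 32 were tested, of which 26 were lower, 1 higher and 5 not past the test (median log2 fold change -0.65). Over all genes tested 16.6% were lower and 14.1% higher. Of the tested genes 5 passed the filter only through WT, all of them called lower. The simple epithelial keratins had the largest differences, with log2 fold changes of -3.07 for Krt8, -3.02 for Krt18 and -2.44 for Krt19. Rab25, an epithelial recycling GTPase, was the gene called higher, at 0.981, 1.05 and 1.09 in WT and at 2.36 and 2.15 in C3G KO cells (log2 fold change 0.67, adjusted p = 0.00184 by limma). In deposited TPM its log2 fold change was 0.25 and did not pass the test.

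Of 22 genes of the mesenchymal state and of EMT 13 were tested, and 8 were lower, 0 higher and 5 not past the test (median log2 fold change -0.69). The shares over all genes tested were 16.6% lower and 14.1% higher. Zeb2, Twist1, Cdh2, Acta2 and Col1a1 passed the filter only through WT, and these 5 are among the 8 called lower. Acta2 and Tagln, genes of contractile smooth muscle actin filaments, had log2 fold changes of -3.61 and -3.42, and Vim, the gene of vimentin, -1.38. Zeb2, which represses epithelial genes, was at 1.75, 1.45 and 1.18 in WT and at 0.517 and 0.508 in C3G KO cells (log2 fold change -0.69, adjusted p = 0.00704 by limma), whereas Zeb1 overlapped between the groups (0.0093, adjusted p = 0.938 by limma). Snai1 was below the filter, at 0.471 to 0.502 in WT and 0.307 and 0.364 in C3G KO cells.

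Of 20 further regulators of epithelial and mesenchymal splicing 18 were tested, and 5 were lower, 1 higher and 12 not past the test (median log2 fold change -0.17), where 16.6% of all genes tested were lower and 14.1% higher. Of the tested genes 3 passed the filter only through WT, Celf2 among them. Rbm47, which acts beside the ESRP proteins on epithelial exons, was at 7.65, 7.62 and 6.75 in WT and at 5.21 and 5.46 in C3G KO cells (log2 fold change -0.40, adjusted p = 0.0119 by limma). Mbnl2 and Celf2 had log2 fold changes of -0.92 and -0.62. Ptbp2, a repressor of neuronal exons, was higher (0.60, adjusted p = 0.00498 by limma), although its deposited log2 fold change was -0.059.

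**Figure D4:**
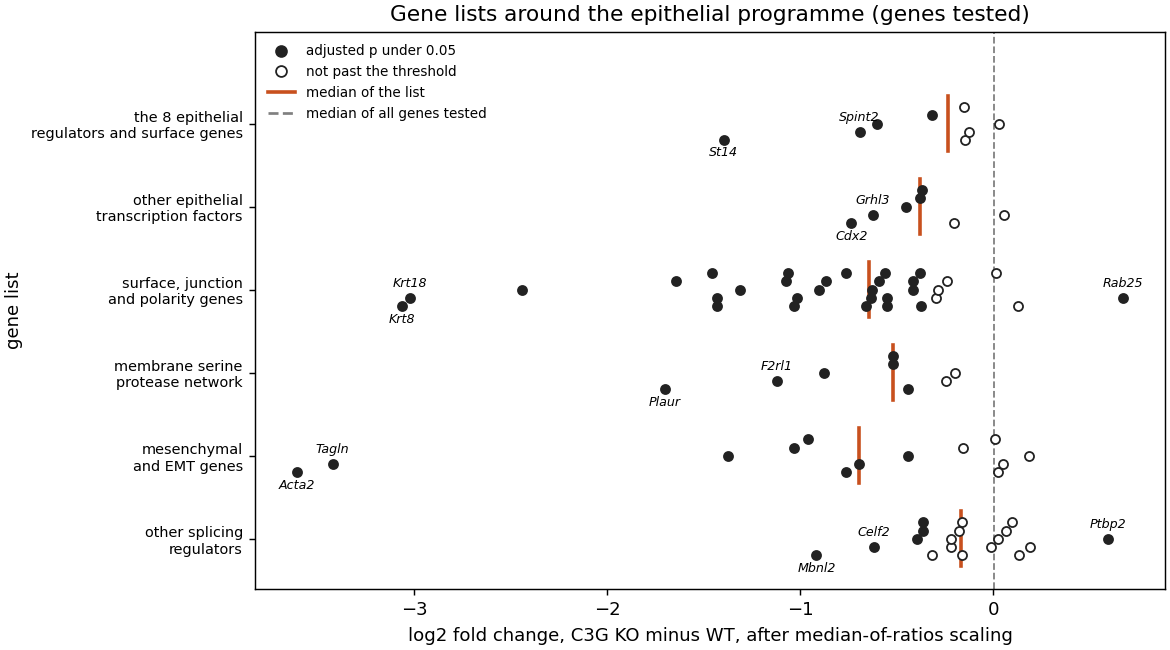
Log2 fold changes after scaling, C3G KO minus WT, of the genes tested in each list. Each point is 1 gene, filled where limma's adjusted p is under 0.05, and the vertical bars are list medians. Most tested genes of the surface and the mesenchymal list lie below 0, and the median of the 8 genes, -0.23, lies between that of the other splicing regulators, -0.17, and those of the other 4 lists.

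The lists were set beside all genes by counts and medians only. In deposited TPM, where 56.8% of all genes were called lower, the genes called lower were 6 of 7 other epithelial transcription factors, 8 of 8 protease genes, 30 of 32 surface genes, 12 of 13 mesenchymal genes and 14 of 18 splicing regulators, with 0 called higher in each. Relative to the median of all genes, which was -0.55 there, their medians were -0.34, -0.48, -0.68, -0.45 and -0.21 in the same order. Markers of other cell types also differed. The summed scaled TPM of 8 trophoblast markers was 18.0 to 19.8 in WT and 10.99 and 12.0 in C3G KO cells, that of 7 fibroblast markers 4.03 to 4.67 and 2.83 and 3.20, and that of 6 mesoderm markers 4.17 to 5.21 and 1.29 and 1.92. Of these markers 3 of 8, 4 of 7 and 5 of 6 stayed below 1 TPM in every sample. The trophoblast markers Cdx2, Elf5, Tfap2c and Krt7 are also in the epithelial lists. The fibroblast markers Col1a1, Col1a2 and Col3a1 are also in the mesenchymal list. Trp63, a marker of surface ectoderm, is also among the other epithelial transcription factors. Cdx2, Tfap2c and Krt7 were called lower, while Eomes and Ascl2 did not pass the test. Only Col1a1 and Thy1 of the fibroblast markers and T of the mesoderm markers were tested, and each was called lower. Of the tested markers 3 of trophoblast and 1 of fibroblasts passed the filter only through WT. All 6 markers of surface ectoderm and mature epithelium were each below 1 TPM in every sample. Their summed scaled TPM was 1.08 to 1.42 in WT and 0.408 and 0.501 in C3G KO cells. Other sums were larger in C3G KO cells and also rested on few genes. The genes named for any of the sums were picked out after their values were seen. The sum of 9 extraembryonic endoderm markers was 9.12 and 11.4 against 4.33 to 4.47 in WT, with 7 of them below 1 TPM in every sample and Cubn and Dab2 called higher. That of 5 neurectoderm markers was 25.9 and 27.6 against 19.4 to 20.96, with 2 of them below 1 TPM throughout, Tubb3 called higher, Nes called lower (log2 fold change -1.28, adjusted p = 0.000437 by limma) and Pax6 not past the test. That of 10 ES cell markers was 2578 and 2882 against 1692 to 2101, most of it from Dppa5a, the 1 gene called higher. Klf4 was called lower (log2 fold change -0.51, adjusted p = 0.0348 by limma) and 8 did not pass the test. The paper, by qPCR and western blot, reported Klf4 and Esrrb transcript and protein as higher in C3G KO than in WT cells, and Nanog as lower. Here Esrrb (log2 fold change 0.12, adjusted p = 0.211 by limma) and Nanog (0.29, adjusted p = 0.0713 by limma) were among the 8. In its RNA sequencing the paper found no significant difference for many pluripotency genes. Of the endoderm markers below the filter, Gata6 was at 0.295 to 0.367 in WT and at 0.889 and 0.916 in C3G KO cells. Sox17 was at 0.308 to 0.426 in WT and at 0.938 and 1.07 in C3G KO cells. Neither was tested. The paper, by qPCR, reported Gata6 and Sox17 as repressed in C3G KO cells, along with T (Brachyury) and Eomes. No marker was at 0 in every sample. The part of these cell types in the levels of the 8 genes was not tested.

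For each of the 8 genes the tested gene with the most similar profile was sought, as the smallest Euclidean distance between log2(scaled TPM + 1) values centred on their mean over the 5 samples. St14 lay nearest to Ahnak (distance 0.0491), which was at 56.2, 56.6 and 57.5 scaled TPM in WT and at 21.2 and 20.95 in C3G KO cells. Spint1 lay nearest to Mapkapk2 (0.0318), Spint2 to Spry2 (0.104), Esrp2 to Fam222b (0.032) and Esrp1 to Naa40 (0.0232). The profile nearest to Grhl2 was that of Map3k15 (0.0292), to Ovol2 that of Phka1 (0.0124) and to Epcam that of Cdc42ep3 (0.054). None of the 8 genes was nearest to another of them. With all tested genes as candidates this was likely in any case, so it does not show whether the 8 vary together.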

How the data were processed

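RNA from 3 WT and 2 C3G KO samples of mouse ES cells was sequenced. The authors deposited TPM of 142647 Ensembl transcripts, rounded to 2 decimals. The submitters' processing notes name bcl2fastq 2.20, FastQC 0.11.7, STAR 2.5.1b and RSEM 1.2.31 and the build GRCm38. Which tool made the TPM is not given in the sources used here. Read counts were not used here, so depth and counting error are unknown, and precision is limited by the number of samples.

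GENCODE M21 held 141524 of them and lacked 1123. TPM were summed by symbol, scaled by median-of-ratios size factors and kept where deposited TPM reached 1 in at least 2 samples. C3G KO and WT were compared on log2(TPM + 1) with limma 3.58.1 (R 4.3.3) with a mean-variance trend, two-sided, with Benjamini-Hochberg adjustment over all genes tested and a threshold of 0.05. Prior degrees of freedom were 3.11 after scaling and infinite for deposited TPM, where p-values rest on the spread shared by genes of like level. The script was tested on simulated data. Python 3.11.15, scipy 1.17.1 and matplotlib 3.10.9 served for the rest. Exons and gene positions are from GENCODE M21 and promoters from RefSeq. Promoter windows of Grhl2, Esrp1, Esrp2 and St14 were not analysed here.

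The 8 genes and the lists were chosen with earlier results of these data known. Genes named are the 8, their paralogs, a fixed set (Cdh1, Zeb1, Zeb2, Snai1, Rbm47, Prss8, Rapgef1 and 1 gene not reported here), the nearest profiles, and, per list, the 3 genes with the largest called rise and the 3 with the largest called fall. Some were left out of the text. Alternatives were TPM as deposited, scaling to protein-coding TPM, quantile normalization, a pseudocount of 0.1 or of 5, a filter of 5 TPM or none, no trend, each sample left out, a replicate block, and a correction for length and GC content with a loess span of 0.5. Ratios within samples and the GRHL core were added after seeing the data.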

Additional observations from a re-analysis of the deposited data

How the results depend on the processing

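St14 and Spint1 passed the test under all 16 alternatives, with log2 fold changes of -2.00 to -0.998 and -1.20 to -0.41. Spint2 passed under 15 and was lost without a filter (-0.67, adjusted p = 0.0578 by limma). Esrp2 passed under 6 of 15. It was lost with quantile normalization (-0.24), without a filter (-0.30) and with the length and GC correction (-0.17), and ranged from -0.40 to -0.24 with each sample left out. Ovol2 and Esrp2 were not tested under the filter of 5 TPM. In deposited TPM Ovol2 (-0.46), Esrp1 (-0.77) and Epcam (-0.80) passed, as did Esrp1 scaled to protein-coding TPM (-0.35). The sign of Grhl2 turned in deposited TPM (-0.60), scaled to protein-coding TPM (-0.17), under the filter of 5 TPM (-0.0083) and without WT replicate 2 (-0.0046), and it ranged from -0.0046 to 0.063 with each sample left out. Ovol2 was 0.023 with quantile normalization, and Epcam ranged from -0.28 to 0.033 with each sample left out, the highest without C3G KO replicate 1. The causes were not tested. When a C3G KO sample is left out, the lone one is assumed to vary like the WT samples.

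The count of the 8 genes called lower was 8 in deposited TPM, 2 without a filter and 3 to 4 with each sample left out. Of all genes, 1760 were higher and 2083 lower. In deposited TPM 181 were higher and 7109 lower, scaled to protein-coding TPM (median log2 fold change -0.17) 707 and 3732, and under the filter of 5 TPM 1122 and 1348. With each sample left out 909 to 1579 were higher and 1385 to 1880 lower, both lowest without WT replicate 2, and 981 and 990 were higher without C3G KO replicate 1 or 2. Other epithelial transcription factors called lower were 2 without a filter, 3 under the filter of 5 TPM and 1 to 5 with each sample left out, 1 without WT replicate 2 and 3 without either C3G KO sample. Protease genes called lower were 3 under the filter of 5 TPM, 3 with the length and GC correction and 3 to 6 with each sample left out, 3 without C3G KO replicate 1, and 1 was called higher without a filter. Surface genes called higher were 0 in deposited TPM, 0 under the filter of 5 TPM and 2 with the length and GC correction, and 22 to 27 were lower with each sample left out. Mesenchymal genes called lower were 4 under the filter of 5 TPM, and 2 were higher with the length and GC correction. Splicing regulators called lower were 14 in deposited TPM, 10 scaled to protein-coding TPM, 3 without a filter and 3 to 5 with each sample left out, 3 without C3G KO replicate 1, and those called higher were 0 in deposited TPM and 2 with the length and GC correction.

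The groups share 2 replicate numbers, and deviations of same-numbered samples correlated at -0.18 and 0.181. The deviations of the 2 C3G KO samples mirror each other, so these correlations cannot decide whether the numbers pair the samples. The main fit left the samples unpaired, and the replicate block was an alternative. With the replicate block 1489 genes were higher and 1816 lower, Esrp2 was lost (-0.31, adjusted p = 0.0743 by limma) and 3 splicing regulators were lower. With the block and the length and GC correction 1341 genes were lower, Esrp2 was at -0.17, 3 other epithelial transcription factors and 3 splicing regulators were lower, and 1 mesenchymal gene was higher. Across genes, which are not independent replicates, transcript length and log2 fold change had a Spearman correlation of -0.31 after scaling and 0.0283 after the correction, under which St14 was at -1.18, Spint1 at -0.47, Spint2 at -0.69 and Rapgef1 at -0.12 (adjusted p = 0.239 by limma). As a share of all Fgfr2 transcripts, those with IIIb made up 21.3% in WT and 15.6% in C3G KO cells. Of all Enah transcripts, the one with the 63-base exon made up 27% in WT and 25.9% in C3G KO cells.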
